A study of Homo sapiens with 8 samples.

Results

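The 10 genes described here encode core proteins of proteoglycans: the syndecans SDC1, SDC2, SDC3 and SDC4, the glypican GPC1, and the leucine-rich repeat proteins decorin (DCN), lumican (LUM), biglycan (BGN), fibromodulin (FMOD) and PRELP. They were chosen by gene symbol, and 21 of the 54613 probe sets on the array carry one of these symbols. A probe set is a group of short probes that together give 1 signal. DCN had 5 probe sets, SDC2 and BGN had 3 each, SDC1, SDC3 and GPC1 had 2 each, and the other 4 genes had 1. Each gene was represented by its brightest probe set, by the mean log2 signal over all arrays, and the other probe sets are given beside it.

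A proteoglycan is a protein that carries long sulfated sugar chains. Syndecans span the plasma membrane and glypicans are held on it by a lipid anchor. Both carry heparan sulfate, which binds growth factors and matrix proteins, and SDC1 is the syndecan typical of epithelia while SDC2 is known from fibroblasts and other mesenchymal cells. The leucine-rich proteins are secreted, bind fibrillar collagen and are typical products of connective tissue fibroblasts.

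The cells were HMLE, an established line of immortalized human mammary epithelial cells, grown in MEGM medium, and all groups shared that line and medium. CD24hi, labelled 24hi, held cells sorted for CD24, a surface glycoprotein of epithelial cells, and is labelled epithelial. MSP1, MSP2 and MSP3 are labelled as mesenchymal subpopulations of the same line, and how they were isolated is not given in the sources used here. Each of the 4 groups had 2 single-colour Affymetrix arrays of total RNA, named a and b, with no treatment named, and nothing in the labels ties a and b to separate cultures. The comparisons asked how the mesenchymal groups differ from the CD24-sorted epithelial cells and from each other.

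The median signal lay between 15.5 and 20.2 on the 8 arrays, and between 57.6% and 60.3% of probe sets were under 32 signal units. Values under 32 are called dim here, because the spread between arrays widened below it: the median residual SD was 0.31 log2 units for probe sets over 512 and 1.14 for those under 8. The labels fitted most of the defining markers, with 7 of 8 epithelial markers called lower in the MSP groups (CDH1 at least 136-fold). Of 8 mesenchymal markers 5 were called higher (ZEB2 at least 4.45-fold). Over all probe sets, 1.59% were called lower and 1.58% higher. ESRP1, RAB25 and ZEB1 count among the called markers. They had a name here only through low p-values in the authors' table, which compares the same groups, as did KRT14. The markers KRT14, VIM, FN1 and CDH2 were not called. Summed signals of the epithelial markers ran from 28500 to 42330 in CD24hi and from 2504 to 5393 in the MSP groups. Of the endothelial markers 4 of 5 were measured, and CDH5, VWF and KDR were under 32 on every array. PECAM1, the other, read 49.8 and 38.2 in CD24hi and 57.6 to 74.4 in the MSP arrays. Of the leukocyte markers 2 of 5 were measured. PTPRC was under 32 on every array, and CD14 passed 32 only on CD24hi a, at 53.7. Of the neural markers 2 of 4 were measured, and the glial marker GFAP was under 32 on every array. The neural markers, which the neuronal tubulin TUBB3 dominates, summed to 2043 and 4116 in CD24hi and to between 1602 and 4257 in the MSP groups. The endothelial sum was 58.6 and 59.6 in CD24hi and 76.8 to 107.5 in the MSP groups, and that of the leukocyte markers was 17.3 to 54.8 and 5.74 to 22.2. The part of the epithelial and mesenchymal marker shift in the results below was not tested. The CD24hi arrays stood apart from each other: 22.4% of 18402 probe sets bright on every array differed over 2-fold between them, whereas the share was 1.40% for the MSP1 pair, 4.59% for MSP2 and 5.45% for MSP3. CD24hi a also had the highest ratio of 3′ to 5′ signal for the ACTB control, 1.47 against 1.10 to 1.25 on the other arrays. The Bacillus control probe sets averaged 227 on CD24hi a and 30.1 on CD24hi b, with the MSP arrays between, at 73.4 to 105. The part of these array differences in the results was not tested. Values without each CD24hi array are therefore given beside the results.

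**Figure D1:**
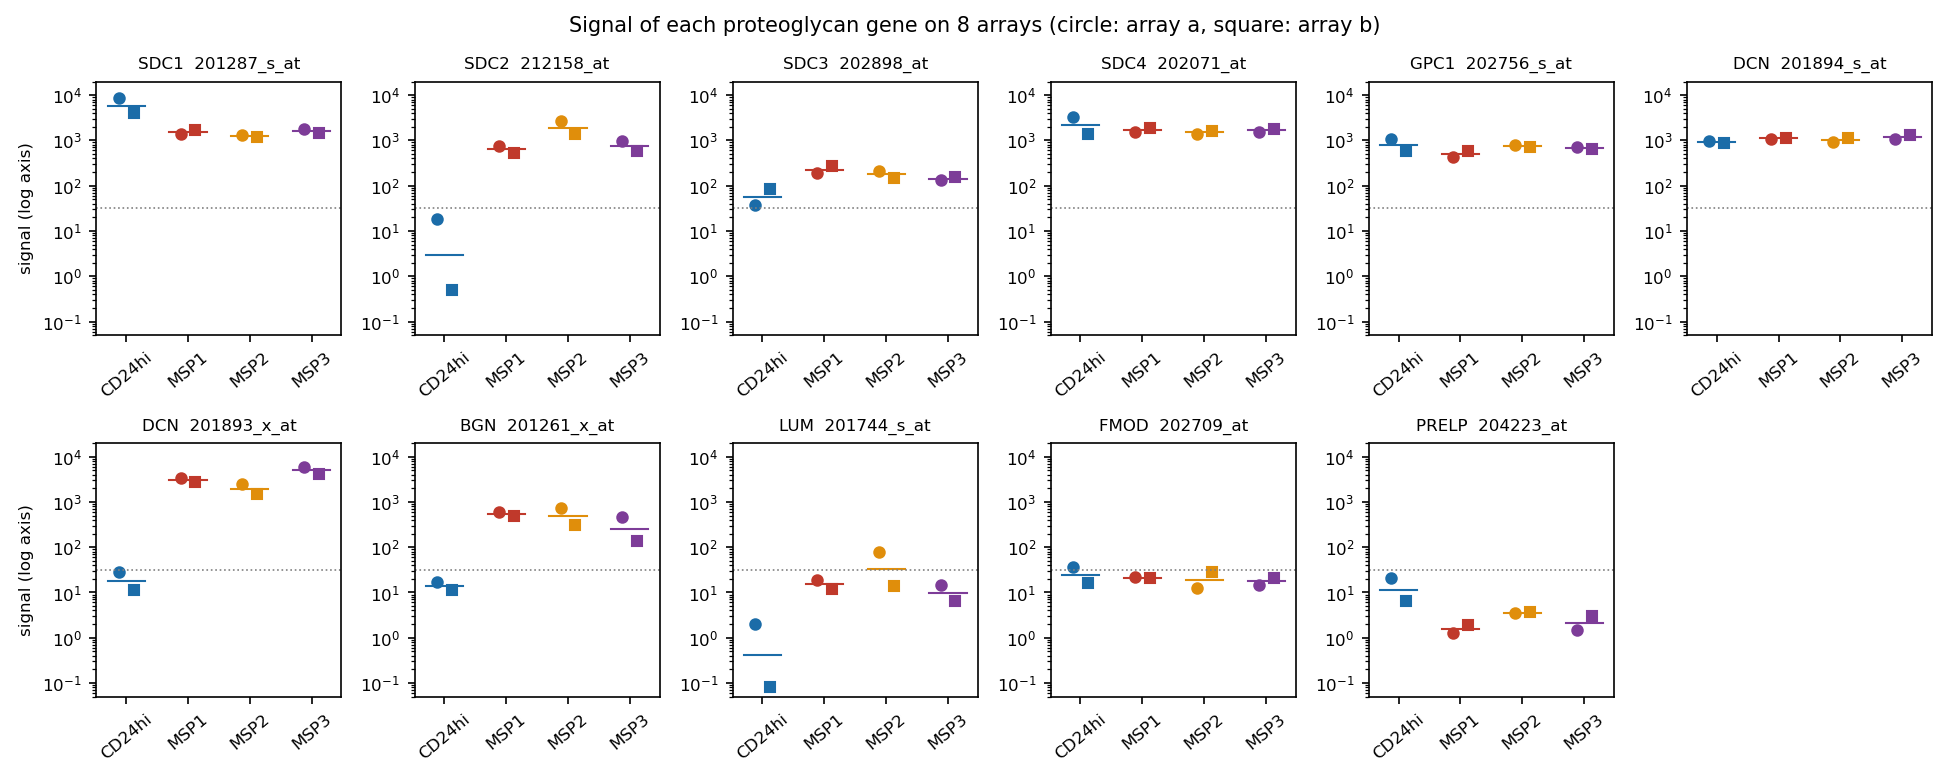
Signal on a log axis for each of the 10 genes on the 8 arrays, by group, with circles for array a, squares for array b, a line at the geometric mean of the group and a dotted line at 32 signal units. DCN is shown by 2 probe sets: SDC1 lies lower in all 6 MSP arrays, SDC2, BGN and the second DCN probe set lie higher, and LUM, FMOD and PRELP lie near or under the dotted line.

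Between the mean of the 3 MSP groups and CD24hi, SDC1 fell while SDC2 and BGN rose, and DCN rose on 4 of its 5 probe sets. By the brightest probe set, 2 of the 10 genes rose and 1 fell, against 1.58% and 1.59% of all probe sets (3.17% either way). Among 8936 named genes taken by their brightest probe set, the share called either way was 8.87%. Over the 21 probe sets, 10 rose and 2 fell. Of these 21, 7 have a gene name here only because the authors' table opens with probe sets of low p-value: all 3 of SDC2, 3 of DCN (211813_x_at, 211896_s_at and 209335_at) and 213905_x_at of BGN. All 7 are among the 10 that rose, as the way they were named would have it, and of the other 14 probe sets 3 rose and 2 fell. The genes were put together with earlier results of these data known, so these counts describe the list and are not evidence about proteoglycans in general. The median log2 change of the 10 genes was -0.03, against 0.02 over all probe sets. With all 6 MSP arrays set against both CD24hi arrays, 4 genes lay wholly above, 2 wholly below and 4 overlapped, where 11.2% of all probe sets lay wholly above, 9.92% wholly below and 21.1% one or the other. A call means a limma p under 0.05 after Benjamini-Hochberg adjustment across the whole array, and log2 changes are given ± SE with n = 2 arrays per group. In such bulk samples, fewer cells expressing a gene and less RNA per cell cannot be told apart.

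The upstream sequence is shown for a syndecan that fell, a syndecan that was not called and a leucine-rich proteoglycan that rose. RefSeq's promoter table (GRCh38.p14) had an entry for 7 of the 10 genes. The 250 bases before the gene start are printed 5′ to 3′ in the direction of the gene, at chr2:20225476-20225725 (minus strand) for SDC1, chr20:45348425-45348674 (minus strand) for SDC4 and chrX:153494730-153494979 (plus strand) for BGN. Capitals mark every match, on either strand, of the E-box CACCTG (bound by ZEB and SNAI repressors), the GC box GGGCGG and the TATA box TATAAA.
SDC1: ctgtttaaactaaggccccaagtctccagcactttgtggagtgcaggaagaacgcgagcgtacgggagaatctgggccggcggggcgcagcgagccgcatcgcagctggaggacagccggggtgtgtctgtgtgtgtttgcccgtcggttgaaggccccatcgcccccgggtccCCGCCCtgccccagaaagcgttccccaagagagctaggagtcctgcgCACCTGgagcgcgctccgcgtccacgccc
SDC4: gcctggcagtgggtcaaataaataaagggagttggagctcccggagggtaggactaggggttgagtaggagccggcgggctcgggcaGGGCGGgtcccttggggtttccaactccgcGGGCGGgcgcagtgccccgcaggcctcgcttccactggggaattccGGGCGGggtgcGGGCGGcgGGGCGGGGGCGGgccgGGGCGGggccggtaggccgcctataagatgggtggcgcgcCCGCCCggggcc
BGN: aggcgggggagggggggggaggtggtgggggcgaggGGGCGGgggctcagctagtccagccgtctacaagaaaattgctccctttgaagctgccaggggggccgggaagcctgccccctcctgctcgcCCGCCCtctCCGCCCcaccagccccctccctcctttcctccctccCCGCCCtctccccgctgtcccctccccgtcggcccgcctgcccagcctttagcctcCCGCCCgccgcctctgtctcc
The SDC1 window held 1 E-box and 1 GC box, that of SDC4 held 8 GC boxes and that of BGN 5 GC boxes. Among the windows not printed, that of SDC3, which was not called, also held 1 E-box. Those of GPC1, FMOD and PRELP held 0. In SDC4, 2 adjacent GC boxes run together in capitals. No window of the 3 held the TATA box. Over 35116 promoter windows of this length, 17.5% held the E-box, 42.6% the GC box and 10.7% the TATA box on either strand. A match describes the letters only, and no binding was measured here.

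SDC1, the main syndecan of epithelial cells, had signals of 8479 and 3996 on CD24hi arrays a and b. It had 1389 and 1689 in MSP1, 1322 and 1180 in MSP2, and 1788 and 1488 in MSP3. All 6 MSP arrays lay below both CD24hi arrays, which themselves differed 2.12-fold. The geometric mean was 5821 in CD24hi and 1461 over the MSP groups, a 3.98-fold fall (log2 change -1.99 ± 0.37, adjusted p = 0.0491). The other SDC1 probe set, 201286_at, fell 5.93-fold, from 3648 to 615 (-2.57 ± 0.41, adjusted p = 0.0325). Against CD24hi, MSP1 was 3.80-fold lower, MSP2 4.66-fold and MSP3 3.57-fold on the brightest probe set, and none of these single comparisons passed the test (adjusted p = 0.125, 0.0923 and 0.140). With an offset of 16 each of them passed (limma adjusted p = 0.0339, 0.0213 and 0.0400), as they did with an intensity trend in the variance. The call for the MSP mean was near the threshold. When each array was dropped in turn, both SDC1 probe sets lost it 7 times of 8 and kept it only with CD24hi b dropped. On the brightest the fall became 2.73-fold with CD24hi a dropped and 5.80-fold with b dropped, and it missed the threshold with signals raised to a floor of 32 (adjusted p = 0.0980) or with arrays weighted by their quality (adjusted p = 0.111).

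SDC2, a syndecan of mesenchymal cells, was dim in CD24hi and bright in every MSP array. Its brightest probe set, 212158_at, read 18.4 and 0.49 in CD24hi, 740 and 540 in MSP1, 2666 and 1391 in MSP2, and 951 and 598 in MSP3. The lowest MSP array thus stood far above the higher CD24hi array, although the CD24hi arrays, both dim, differed 37.5-fold. The rise was at least 30.4-fold (log2 change 8.34 ± 1.28, adjusted p = 0.0285), with the dim level set to 32. On 212154_at the rise was at least 16.3-fold (5.97 ± 0.51, adjusted p = 0.00531), from 13.2 and 5.21 in CD24hi to between 292 and 1529 in the MSP arrays. On 212157_at it was at least 5.66-fold (4.63 ± 0.32, adjusted p = 0.00306), from 7.82 and 6.82 to between 120 and 456. These last probe sets had CD24hi arrays closer together and a smaller SE. With each array dropped in turn, their log2 changes ran from 5.30 to 6.64 on 212154_at and from 4.49 to 4.77 on 212157_at. The brightest probe set lost its call whichever MSP array was dropped. Its log2 change was 10.95 without CD24hi a and 5.72 without CD24hi b. Fits without a CD24hi array leave 1, which is assumed to vary like the MSP arrays. They do not hold the wide CD24hi spread and say nothing of stability. All 3 SDC2 probe sets carried a name here only because the authors' table lists the probe sets with low p-values first, so SDC2 could not have been among the 10 genes without such a result.

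SDC3, a syndecan best known from nerve and muscle, read 37.8 and 85.3 in CD24hi, 191 and 269 in MSP1, 214 and 147 in MSP2, and 131 and 152 in MSP3. Every MSP array was above both CD24hi arrays. The difference of 3.14-fold did not pass the test (log2 change 1.65 ± 0.41, adjusted p = 0.113, 95% interval 0.65 to 2.65 before adjustment). It passed with an offset of 16 (limma adjusted p = 0.0355), a filter at 32 on 2 or more arrays (0.0245) and an intensity trend in the variance (0.0223). The adjustment over named genes alone also called it (0.0390), and quantile normalization did not (0.124). The second SDC3 probe set, 1554864_a_at, was dim in every group mean, at 9.76 in CD24hi and 27.1 over the MSP groups (1.47 ± 0.52, adjusted p = 0.239). Dropping CD24hi a left 2.09-fold for the gene, and dropping b gave 4.71-fold.

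SDC4, a widely expressed syndecan of focal adhesions, read 3357 and 1394 in CD24hi and between 1363 and 1877 in the MSP arrays. Only CD24hi array a stood apart, and array b lay within the MSP range. The log2 change of -0.42 ± 0.40 did not pass the test (adjusted p = 0.676), with a 95% interval from -1.40 to 0.56. GPC1, a glypican that acts as a growth factor co-receptor, read 1095 and 582 in CD24hi and between 420 and 798 in the MSP arrays, so the groups overlapped. Its log2 change was -0.34 ± 0.35 (adjusted p = 0.694, 95% interval -1.19 to 0.50), and -0.22 ± 0.27 on the second probe set (adjusted p = 0.752). The intervals of SDC4 and of the brightest GPC1 probe set hold a fall of 2-fold, a log2 change of -1. Neither holds a rise of that size. The interval of the second GPC1 probe set, -0.87 to 0.44, holds neither a fall nor a rise of 2-fold. Without CD24hi a the sign turned for both genes, to 0.21 for SDC4 and 0.11 for the brightest GPC1 probe set.

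**Figure D2:**
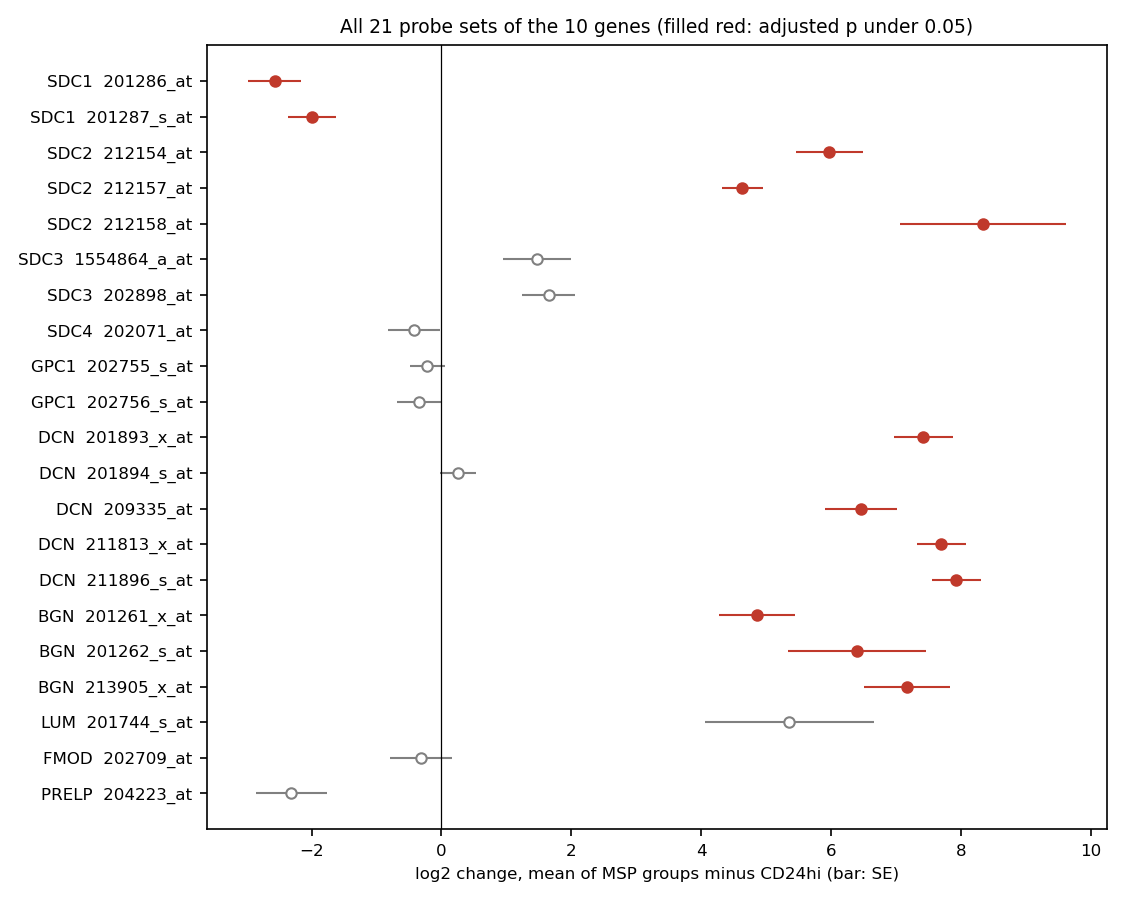
Log2 change between the mean of the MSP groups and CD24hi for all 21 probe sets of the 10 genes, with the SE as a bar. Filled red points passed the test: both SDC1 probe sets lie left of 0, all SDC2 and BGN probe sets and 4 of 5 DCN probe sets lie right of 0.

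DCN, a secreted proteoglycan that coats collagen fibrils, rose on 4 of its 5 probe sets and did not on the brightest. Of the probe sets named without regard to their p-value, 201893_x_at and 201894_s_at, only the former rose. On 201893_x_at it read 28.6 and 11.4 in CD24hi, 3426 and 2726 in MSP1, 2518 and 1493 in MSP2, and 6034 and 4134 in MSP3. Dim in CD24hi and bright in every MSP array, it was at least 96.7-fold higher in the MSP mean (log2 change 7.42 ± 0.46, adjusted p = 0.00260). On 211813_x_at the rise was at least 79.2-fold (7.70 ± 0.38), on 211896_s_at at least 56.3-fold (7.93 ± 0.38) and on 209335_at at least 13.2-fold (6.46 ± 0.55), with adjusted p between 0.00231 and 0.00529. With each array dropped in turn, the log2 change of 201893_x_at ran from 6.76 to 8.08. On the other probe sets that rose it ran from 5.69 to 8.11. Dropping a CD24hi array leaves 1 and takes the spread from the MSP arrays, so whether a call is kept there says nothing of stability. In the main fit these 4 probe sets were also called in each single MSP group against CD24hi. There 201893_x_at was at least 95.5-fold higher in MSP1, 60.6-fold in MSP2 and 156-fold in MSP3.

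The brightest probe set named DCN, 201894_s_at, went against the other 4. It read 991 and 871 in CD24hi and between 940 and 1316 in the MSP arrays, and the groups overlapped. Its log2 change was 0.25 ± 0.27 (adjusted p = 0.711, 95% interval -0.41 to 0.91). Because the representative was fixed as the brightest, DCN counts as not called among the 10 genes. With the second brightest probe set in its place, an alternative chosen after the values were seen, 4 of the 10 genes were called. The probe sequences were not used here, so whether 201894_s_at measures the same transcript was not tested.

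BGN, a close relative of DCN that binds collagen and TGF-beta, was also dim in CD24hi and bright in the MSP groups. On the brightest probe set, 201261_x_at, it read 17.0 and 11.2 in CD24hi, 597 and 482 in MSP1, 744 and 315 in MSP2, and 454 and 136 in MSP3. No MSP array came near the CD24hi arrays, but arrays a and b of MSP3 differed 3.34-fold. BGN was at least 12.5-fold higher in the MSP mean (log2 change 4.86 ± 0.58, adjusted p = 0.0133), at least 17.7-fold on 213905_x_at (7.17 ± 0.66, adjusted p = 0.00613) and at least 13.9-fold on 201262_s_at (6.40 ± 1.06, adjusted p = 0.0356). Against CD24hi, the brightest probe set was called in MSP1 and MSP2 (at least 16.8-fold and 15.1-fold, adjusted p = 0.0270 and 0.0323) and not in MSP3 (at least 7.77-fold, adjusted p = 0.0569). The log2 change of this probe set for the MSP mean was 5.16 without CD24hi a and 4.56 without CD24hi b. With each array dropped in turn, it ran from 6.67 to 7.68 on 213905_x_at and from 4.87 to 7.92 on 201262_s_at. Dropping a CD24hi array leaves 1, so whether a call is kept or lost there says nothing of stability. Of the BGN probe sets, 213905_x_at had a name here only through the authors' low p-values. On 201262_s_at the authors' table has log2 changes of 3.18, 3.29 and 2.30 for the 3 MSP groups. These lie below the bound of 13.9-fold, which holds only for the signals used here. The brightest missed the threshold for the MSP mean with a floor of 32 (3.65, adjusted p = 0.101) and with array weights (4.86, adjusted p = 0.0594). In the single comparisons it passed in MSP3 with an offset of 16 (limma adjusted p = 0.0365) and with an intensity trend (0.00468). It missed in MSP1 and MSP2 with the floor (0.164 and 0.181).

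LUM, FMOD and PRELP, the remaining leucine-rich proteins, were dim in CD24hi and in the MSP mean, so no fold is given for that comparison. LUM, which like DCN regulates the thickness of collagen fibrils, read 2.04 and 0.083 in CD24hi, 19.2 and 11.8 in MSP1, 79.0 and 13.8 in MSP2, and 14.9 and 6.32 in MSP3. Every MSP array was above both CD24hi arrays, and only MSP2 a passed 32 signal units (log2 change 5.36 ± 1.30, adjusted p = 0.105). That change was 3.05 with CD24hi b dropped and 7.66 with CD24hi a dropped. The latter rests on 1 CD24hi array at 0.083, with the spread taken from the MSP arrays alone. With all 8 arrays, LUM passed with an intensity trend in the variance (limma adjusted p = 0.0301). It also passed with the adjustment over named genes alone (adjusted p = 0.0431), in both cases on mostly dim values. PRELP, which anchors basement membranes to connective tissue, read 20.5 and 6.32 in CD24hi and between 1.28 and 3.62 in the MSP arrays (-2.31 ± 0.55, adjusted p = 0.0990), with the MSP arrays below both. With the adjustment over named genes alone, PRELP passed (limma adjusted p = 0.0358), on dim values. FMOD, a collagen-binding protein of cartilage and tendon, read 36.1 and 15.8 in CD24hi and between 12.6 and 28.5 in the MSP arrays, which overlapped (-0.31 ± 0.48, adjusted p = 0.807). Its change turned to 0.28 without CD24hi a.

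Of the 10 genes, 1 was called in MSP1, 1 in MSP2 and 0 in MSP3 when each was set against CD24hi with limma, where 1.81%, 1.56% and 1.57% of all probe sets were called. The called gene was BGN in both cases. At an unadjusted p under 0.05, 6 of the 10 genes passed in each of the 3 comparisons, against 13%, 12.8% and 13.6% of all probe sets. Over the 21 probe sets, 8 rose in MSP1, 8 in MSP2 and 7 in MSP3 and 0 fell, of which 6 in each comparison were named only through the authors' low p-values and 2, 2 and 1 were not. Nothing is read from these counts against the background of 0.775%, 0.747% and 0.787% of the array that rose and 1.03%, 0.811% and 0.787% that fell. SDC2 on its brightest probe set had adjusted p of 0.0872, 0.0569 and 0.0842 in the 3 comparisons. Its other probe sets were called in all 3, with 212154_at at least 9.98-fold higher in MSP1, 32.5-fold in MSP2 and 13.3-fold in MSP3. These comparisons share the CD24hi arrays.

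Among the 3 mesenchymal groups, no probe set of the array was called by limma in any pair (0% each), and none of the 10 genes passed an unadjusted p under 0.05 on its brightest probe set in the fit without a block. Over the array, 2608 probe sets (4.78%) did so between MSP1 and MSP2, 2334 (4.27%) between MSP1 and MSP3 and 2469 (4.52%) between MSP2 and MSP3. The a minus b differences of the MSP groups correlate, and in a fit of the 6 MSP arrays with the array letter as a block, added after seeing the data, again no probe set was called. In that fit 7.84%, 6.53% and 7.13% of the array passed the unadjusted threshold in the 3 pairs. By the brightest probe set, 2 of the 10 genes did so between MSP1 and MSP2, SDC2 (limma adjusted p = 0.436) and PRELP (adjusted p = 0.586). By that same probe set, none did between MSP1 and MSP3. Between MSP2 and MSP3, it was SDC2 (adjusted p = 0.517) and LUM (adjusted p = 0.679). What follows describes the levels and is not a called difference. SDC2 was highest in MSP2 on all 3 probe sets: both MSP2 arrays lay above the other 4 MSP arrays, a pattern seen in 5.95% of 22498 probe sets bright in the MSP groups. The pattern was read from these same values, so the share does not test it. On 212158_at the levels were 1925 in MSP2, 754 in MSP3 and 632 in MSP1, and MSP1 and MSP3 overlapped. The MSP1 to MSP2 difference was largest relative to its error on 212157_at, at -1.49 ± 0.39 (unadjusted p = 0.00851, adjusted p = 0.646).

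DCN followed another order. On all 4 probe sets that rose, the MSP3 arrays lay above the MSP1 arrays and these above the MSP2 arrays, an order without overlap that 1.01% of the 22498 probe sets showed (4.08% had both MSP3 arrays on top). The order was read from these same values and other orders without overlap were not counted, so these shares do not test it. On 201893_x_at the levels were 4995 in MSP3, 3056 in MSP1 and 1939 in MSP2. The MSP2 to MSP3 difference was -1.36 ± 0.56 there and -1.71 ± 0.46 on 211896_s_at (unadjusted p = 0.0505 and 0.00981, adjusted p = 1.00 and 0.732). With the array letter as a block, limma gave the 4 probe sets unadjusted p from 0.00465 to 0.00595 in that pair (adjusted 0.502 to 0.508). Between MSP1 and MSP3 it gave 0.03615 to 0.0514 (adjusted 0.722 to 0.765). Between MSP1 and MSP2 it gave 0.0251 to 0.0484 (adjusted 0.565 to 0.634). BGN was lowest in MSP3, at 249 against 536 in MSP1 and 484 in MSP2 on 201261_x_at, and the MSP3 arrays lay below both MSP1 arrays and overlapped those of MSP2 (MSP1 minus MSP3 1.11 ± 0.71, adjusted p = 1.00). In the blocked limma fit of MSP1 against MSP3, BGN had unadjusted p of 0.0391 on 213905_x_at (adjusted p = 0.734). On 201261_x_at and 201262_s_at it was 0.0794 and 0.0915. Probe sets of 1 gene are named for the same gene and are not independent evidence.

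Array a read higher than array b in all 3 MSP groups for the 4 DCN probe sets that rose, for the 3 BGN probe sets, for LUM and for 2 of the 3 SDC2 probe sets, 10 of the 21 in all. This held for 31.5% of 22220 probe sets with a mean signal of at least 32. The ratio of a to b ran from 1.25 to 2.07 for the DCN probe sets and from 1.24 to 6.86 for those of BGN. SDC1 and SDC4 did not follow it, with a to b ratios from 0.82 to 1.20 on the brightest SDC1 probe set and from 0.82 to 0.83 for SDC4. Across the array, a minus b differences correlated between MSP groups (r = 0.65 to 0.80 over 18402 bright probe sets), and what the letters stand for is not given in the sources used here.

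**Figure D3:**
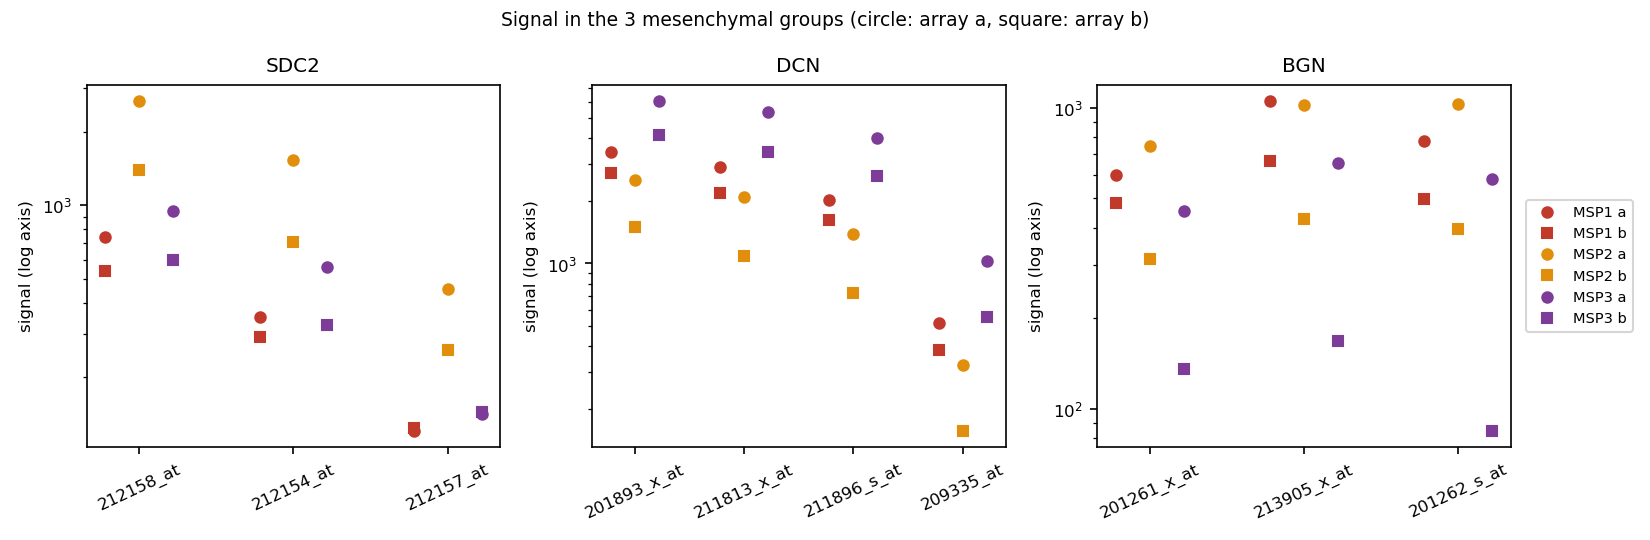
Signal on a log axis in the 3 mesenchymal groups for the probe sets of SDC2, DCN (without 201894_s_at) and BGN, with circles for array a and squares for array b. MSP2 is highest for SDC2 and MSP3 for DCN, array a lies above array b in nearly all pairs, and no difference between groups was called.

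The signal patterns over the 8 arrays most like those of the called genes, ranked among 5111 other named genes, were those of MYO5C and SEMA3F for SDC1 (r = 0.992 and 0.991). For SDC2 they were those of PAFAH1B1 and TADA2A (r = 0.991 and 0.987) and for BGN those of MAMLD1 and CLU (r = 0.988 and 0.987). These correlations are descriptions over 8 arrays that fall into an epithelial and a mesenchymal set. For SDC2 and BGN they also rest on dim CD24hi values. Over the 6 MSP arrays alone they were 0.890 and 0.901 for SDC1, 0.894 and 0.686 for SDC2, and 0.908 and 0.883 for BGN.

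Among the enzymes and partners of these core proteins, of the 67 genes with a name here 17 rose and 5 fell in the comparison of the MSP mean with CD24hi. They were put into 9 lists, and 8.87% of 8936 named genes were called at the same threshold. The lists held 108 symbols, and those not among the 67 had no name here. Dim in MSP mean and CD24hi, in list order below, were 4 of 13, 1 of 6, 2 of 6 and 2 of 8 genes. In the remaining lists they were 2 of 6, 2 of 3, 5 of 10, 1 of 7 and 1 of 8. Such genes enter the list medians. Names came first from the authors' own low p-values, so named genes are called more often than the array as a whole. Of 13 enzymes that build heparan sulfate chains, 1 rose and 1 fell: HS3ST3B1 rose 3.20-fold (log2 change 1.68 ± 0.30, adjusted p = 0.0446) and HS3ST2 was at least 19.1-fold lower (-4.92 ± 0.55, adjusted p = 0.0108). Both add a sulfate group to glucosamine in finished chains. The HS3ST3B1 call did not survive dropping any of the 8 arrays, and that of HS3ST2 was lost when CD24hi a or b was dropped (-4.42 and -5.43). The HS3ST3B1 change was 1.95 without CD24hi a and 1.40 without CD24hi b. Dropping any array also lowered the number of probe sets called over the whole array, so a lost call is not particular to these genes. The median change of this list was -0.58.

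Of 6 genes for chain trimming and core protein shedding, 3 fell and 0 rose (median change -1.96). SULF2, which removes sulfate from heparan sulfate outside the cell, fell 13.7-fold from 2117 to 154 (log2 change -3.78 ± 0.54, adjusted p = 0.0230), and MMP9, a gelatinase, fell 17.1-fold from 549 to 32.2 (-4.09 ± 0.53, adjusted p = 0.0173). The third was HPSE, the heparanase that cuts the chains, at 5.42-fold lower (-2.44 ± 0.40, adjusted p = 0.0358), named here after its value was seen. With each array dropped in turn, SULF2 kept its call 2 times of 8 and MMP9 3 times. The MMP9 change was -3.19 without CD24hi a and -4.99 without CD24hi b. MMP9 read 1022 and 295 in CD24hi and between 24.4 and 42.9 in the MSP arrays, around the dim limit of 32, so its fold is near a lower bound. HS3ST2, SULF2 and HPSE had a name here only through the authors' low p-values. The same holds for AGRN, OMD, TFPI, FGFR1, COL5A2, COL6A1 and COL6A2, which were called in the lists that follow.

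UGDH, which makes a sugar nucleotide used in building the chains, went up 4.17-fold, from 314 to 1310 (2.06 ± 0.30, adjusted p = 0.0247). It was the called gene among 6 of the linker list (median change -0.11), and its call did not survive dropping any of the 8 arrays. The UGDH change itself was 1.98 without CD24hi a and 2.14 without CD24hi b. None of 8 chondroitin and dermatan sulfate enzymes was called (median change -0.69). CHSY1, a chondroitin synthase and the brightest of them, read 1250 in CD24hi and 1587 over the MSP groups (0.34 ± 0.38, adjusted p = 0.724), and the sign turned without CD24hi b (-0.26).

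Other core proteins moved both ways. Of 6 other heparan sulfate carriers 1 rose and 1 fell (median change -0.45): TGFBR3, betaglycan, which presents TGF-beta to its receptors, rose at least 8.03-fold (3.64 ± 0.42, adjusted p = 0.0117), and AGRN, agrin of the basement membrane, fell 5.95-fold (-2.57 ± 0.29, adjusted p = 0.0114). TGFBR3 was not called with CD24hi b dropped (3.06), nor AGRN with CD24hi a or b dropped (-2.49 and -2.66). Of 3 other leucine-rich proteoglycans measured, from 13 listed, osteomodulin (OMD), known from bone, was at least 7.15-fold higher (5.23 ± 0.32, adjusted p = 0.00259). The other 2 were dim in the MSP mean and in CD24hi. The list median of 0.55 is the change of 1 of them, ECM2, at 6.39 in the MSP mean and 4.36 in CD24hi. Of 10 chondroitin sulfate core proteins 2 rose and 0 fell (median change -0.11): serglycin (SRGN), a proteoglycan of secretory granules, 11.2-fold (3.48 ± 0.34, adjusted p = 0.00685), and versican (VCAN), a large matrix proteoglycan, 8.58-fold (3.10 ± 0.49, adjusted p = 0.0311). VCAN kept its call 1 time of 8 when each array was dropped, and its change was 2.23 without CD24hi b and 3.98 without CD24hi a.

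Of 7 binding partners of syndecans and glypicans 4 rose and 0 fell (median change 2.0). TFPI, a coagulation inhibitor that binds heparan sulfate on cells, went up 39.2-fold, from 43.0 to 1687 (5.29 ± 0.45, adjusted p = 0.00529), and PRKCA, a kinase that binds the tail of SDC4, rose 8.93-fold (3.16 ± 0.28, adjusted p = 0.00558). FGF2 and its receptor FGFR1 made up the rest, at 4.15-fold and 4.0-fold, and are named after their values were seen. The TFPI change was 4.63 without CD24hi b and 5.96 without CD24hi a. Of 8 collagens bound by leucine-rich proteoglycans 7 rose and 0 fell (median change 4.79), with COL3A1 up at least 266-fold (8.08 ± 0.37, adjusted p = 0.00231) and COL6A2 at least 9.67-fold (7.18 ± 0.45, adjusted p = 0.00265). Of those that rose, 3 (COL5A2, COL6A1 and COL6A2) had a name here only through the authors' low p-values.

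**Figure D4:**
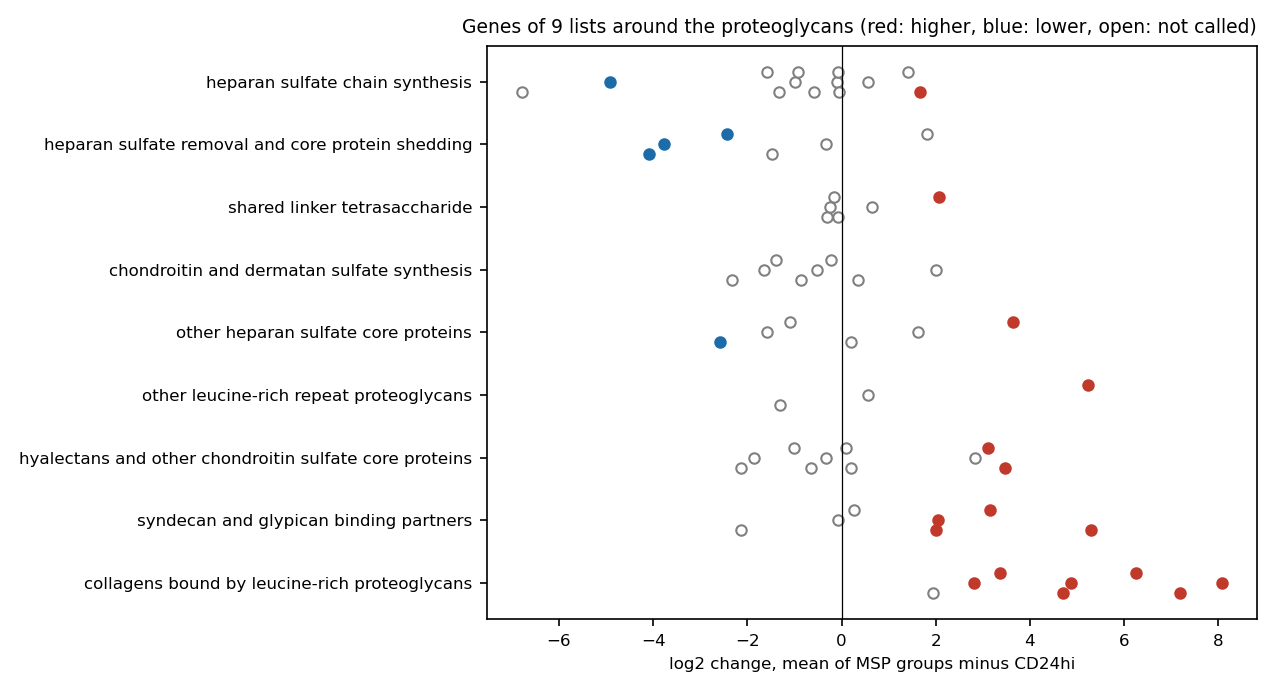
Log2 change between the mean of the MSP groups and CD24hi for each measured gene of 9 lists, with 1 point per gene, red for called higher, blue for called lower and open grey for not called. The collagens and binding partners lie mostly right of 0, and the 3 called genes of the trimming and shedding list lie left of 0.

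The authors' deposited table gives its own fold changes for each MSP group against CD24hi. In the authors' deposited table SDC1 on 201287_s_at has log2 changes of -1.84, -2.23 and -1.82 for the 3 MSP groups in turn, against -1.93, -2.22 and -1.84 here. For SDC2 on 212158_at the authors' deposited table has 5.49, 6.98 and 5.70, and for DCN on 201893_x_at 6.81, 6.12 and 7.47, with p-values of at most 0.000287. For the DCN probe set 201894_s_at the authors' deposited table has 0.36, 0.13 and 0.23. For DCN on 211813_x_at it has 6.23, 5.48 and 6.96, slightly below the bounds here (at least 78.6-fold, 47.2-fold and 134-fold). For BGN on 201261_x_at it has 4.36, 4.25 and 3.38, against 5.28, 5.13 and 4.17 here, and the bounds here lie below the authors' values. For BGN on 201262_s_at it has 3.18, 3.29 and 2.30, against 6.88, 6.92 and 5.39 here. There the authors' values lie below the bounds in all 3 groups. For LUM the authors' deposited table has 0.99, 2.29 and 0.67, against 5.19, 6.32 and 4.56 from the signals used here, all on dim values.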

How the data were processed

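Total RNA of HMLE cells was hybridised to single-colour Affymetrix arrays, 2 per group, per the labels' protocols. The deposited value of each probe set is a linear intensity, with a 2% trimmed mean of 150 on every array. The submitters' processing notes name Affymetrix Expression Console and limma. For their versions, the summary algorithm and the genome build, the sources used here give nothing. The authors' table gives log2 fold changes, average log2 levels and a p-value for 16382 probe sets, per the file headers, and whether the p-value is adjusted is not stated. It opens with 2256 probe sets at or under 0.05 in all 3 comparisons and then runs in array order up to position 14644. It was the source of gene names, so genes named from its opening are selected. Of the 21 probe sets used, 7 lie beyond that position.

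The log2 of each signal entered a linear model over all 8 arrays with a mean per group, in limma 3.58.1 under R 4.3.3 (4 residual and 2.09 prior degrees of freedom). P-values are two-sided and adjusted over 54613 probe sets, after 62 controls were left out. The MSP mean weights the 3 groups equally. Intervals use the fit's degrees of freedom. Where the lower level was under 32, the fold is the brighter level over 32, written "at least". The fit was tested on simulated data with known changes. P-values measure the spread between arrays a and b, which may be technical, and the number of arrays limits the precision.

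The members, the 9 lists, the limit of 32 and the tests were chosen with earlier results of these data known. The rule for named genes took all 10 members, from each list the 2 widest rises and the 2 widest falls that passed, else its brightest gene, and the 2 genes most correlated with each called member. Older symbols were updated through RefSeq synonyms. The array letters were checked for pairing: a minus b differences correlated between 0.65 and 0.80 among the MSP groups and between -0.43 and -0.31 between CD24hi and each of them, so the letters pair the arrays among the MSP groups and not across all 4 groups. The main fit has no block, and a blocked fit of the MSP arrays is given beside their comparisons. Alternatives covered the normalization, the offset, a floor, a filter, the variance model, the probe set rule, the genes tested, the groups in the fit, each array left out and the block. DCN by its second brightest probe set and the blocked fit of the 6 MSP arrays were added after seeing the data.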

Additional observations from a re-analysis of the deposited data

How the results depend on the processing

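In order, the values are for the MSP mean, MSP1, MSP2 and MSP3 against CD24hi. The 1731, 988, 851 and 860 called probe sets became 3691, 2136, 2011 and 2245 with an offset of 16, 3496, 2156, 2033 and 2221 with a filter at 32 on 2 or more arrays, and 3295, 1976, 1790 and 1998 with an intensity trend in the variance. They became 624, 530, 381 and 424 with array weights, and 967, 502, 432 and 452 with probe sets averaged per gene, which tests fewer features. With only the groups compared in the fit, the last 3 gave 0, 0 and 0. Leaving out each array in turn gave 799 to 1199, 0 to 552, 0 to 464 and 0 to 619. The 3, 1, 1 and 0 called members became 4, 4, 3 and 3 with the offset, the same 4, 4, 3 and 3 numbers with the filter, 5, 4, 3 and 3 with the trend, 1, 0, 0 and 0 with array weights, 1, 1, 1 and 1 with a floor of 32, 4, 3, 3 and 2 with averaged probe sets, 6, 4, 3 and 3 over named genes, and 4, 2, 2 and 1 with the second brightest DCN probe set, chosen after seeing the data. Quantile normalization gave 2 in MSP2, only the groups compared gave 0 in each single comparison, and leaving out each array gave 1 to 2, 0 to 1, 0 to 1 and 0 to 1. The 22 called list genes became 14 with array weights, 13 to 16 with an array left out, 15 with the floor, 28 with the offset, the filter or the trend, and 29 over named genes. Between MSP groups, the floor gave 5, 3 and 4 called probe sets (MSP1 against MSP2, MSP1 against MSP3, MSP2 against MSP3) and the filter gave 1 in the first, with no member called. With the array letter as a replicate block over all 8 arrays, where a and b run together among the MSP groups and the opposite way in CD24hi, the called probe sets were 1301, 572, 529 and 592 and the called members 2, 1, 1 and 1, and in the 6 MSP arrays alone, an alternative added after seeing the data, the lowest adjusted p of a member was 0.436.

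Signs turned only in genes that were not called, and only when an array was left out. Without CD24hi a, SDC4 had log2 changes of 0.21, 0.28, 0.10 and 0.26, FMOD 0.28, 0.42, 0.26 and 0.17, and GPC1 0.11 for the MSP mean, 0.37 for MSP2 and 0.22 for MSP3. FMOD in MSP2 was 0.25 without MSP2 a, and GPC1 in MSP2 was 0.0008 without MSP2 b. Over all arrays left out, the lowest values were -1.05, -0.99, -1.17 and -1.01 for SDC4, -0.91, -0.77, -0.93 and -1.02 for FMOD, and -0.80, -1.16, -0.55 and -0.69 for GPC1. A fit with 1 CD24hi array takes its spread from the other groups. The cause of these shifts was not tested. With 2 arrays per group and CD24hi arrays that differ, and with SDC2, BGN and DCN dim in CD24hi, the log2 changes of those genes have no firm size, and the bounds against 32 are the values to use.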
